A study of Mus musculus with 8 samples.

Results

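Microglia, the resident macrophages of the brain, were examined through 33 genes that mark their identity, in the subventricular zone of 3xTg mice and of wild-type (WT) mice. The genes were taken as a list of symbols, and every array probe whose platform annotation carries one of these symbols was used. All 33 genes were on the array, with 44 probes, out of 21363 named genes covered by 29769 named probes. The samples came from 7-month-old female mice, 4 labelled 3xTg and 4 labelled WT (the control strain), and both groups carry the label of a background from C57BL/6J females (B6) and 129S1/SvImJ males (129S). The alterations of the 3xTg line, a model of Alzheimer's disease, include human APP and MAPT transgenes under a Thy1 cassette, which is active in neurons and not in microglia. The design text calls the replicates biological, and whether a sample was 1 mouse or a pool is not given in the sources used here.

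Microglia depend on signalling through the CSF1 receptor, whose ligands are CSF1 and IL-34, and their identity is set by the transcription factors PU.1 (encoded by Spi1) and IRF8. Resting microglia survey the tissue with purinergic receptors such as P2RY12, and they carry surface proteins such as TMEM119 that most other macrophages lack. Other members of the list, such as the integrin subunits, Fc receptors and lysosomal proteins, are shared with macrophages and blood leukocytes. In the subventricular zone, microglia lie among neural stem cells and neuroblasts and clear dying cells.

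The 8 samples were hybridised on 4 arrays, each holding the 3xTg and the WT sample of 1 replicate number. On every array the labels give 3xTg as Cy5 and WT as Cy3, so genotype and dye cannot be told apart, and each difference below holds both. The deposited values are log2 intensities that the authors normalized, and sample medians lay between 10.12 and 10.15. Precision is limited by the 4 arrays. Detection above background could not be assessed from these values, so nothing is said of which genes were silent, and levels of different probes are not compared. The tissue was whole, so fewer microglia and less RNA per microglial cell cannot be told apart. Every difference is the 3xTg value less the WT value within arrays, on the log2 scale, and p-values are from limma with Benjamini-Hochberg adjustment over all 32684 probes, passing at 0.05.

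Microglial identity genes did not pass as higher or lower in 3xTg at any of their 44 probes (limma), against 1.22% of all probes (0.621% higher and 0.603% lower). At an unadjusted p under 0.05 there were 6 member probes, 3 higher and 3 lower, which is 13.6% of the member probes against 18.0% of all probes (8.67% higher and 9.34% lower). With each gene represented by its brightest probe, 16 genes lay above 0, the saturated Itgam probe described below included, and 17 below, and the median difference was -0.0033, against 0.01 over all named genes. The typical size of a difference was 0.04 (median over the 33 genes), against 0.13 over all genes. The median SE was 0.116 for the members and 0.114 over all genes, so the 0.04 lay below the typical error. On single arrays the typical size was 0.17 (median over 32 genes, Itgam left out), against 0.20 over all named genes. The extremes were Ly86, an accessory protein of innate receptor complexes, at -0.64, and Slc2a5, a fructose transporter that microglia express, at 0.39. In 9 genes the difference had 1 sign on all 4 arrays (4 higher, 5 lower), which is 27.3% of the genes against 25.6% of all genes. In 0 of the 33 genes did the 3xTg levels lie wholly outside the WT levels, against 4.62% of all genes.

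The intervals give the range of differences that the arrays allow. Leaving aside Itgam, whose brightest probe was saturated, the 95% interval of limma lay within a 1.5-fold difference in either direction for 26 of 32 genes (81.2%), against 83.2% of all genes. The exceptions were Ly86, Tmem119, Cd68, Cd83, Ctss and Slc2a5. The intervals of the 32 genes reached from -0.95, for Cd68, to 0.82, for Cd83.

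**Figure D1:**
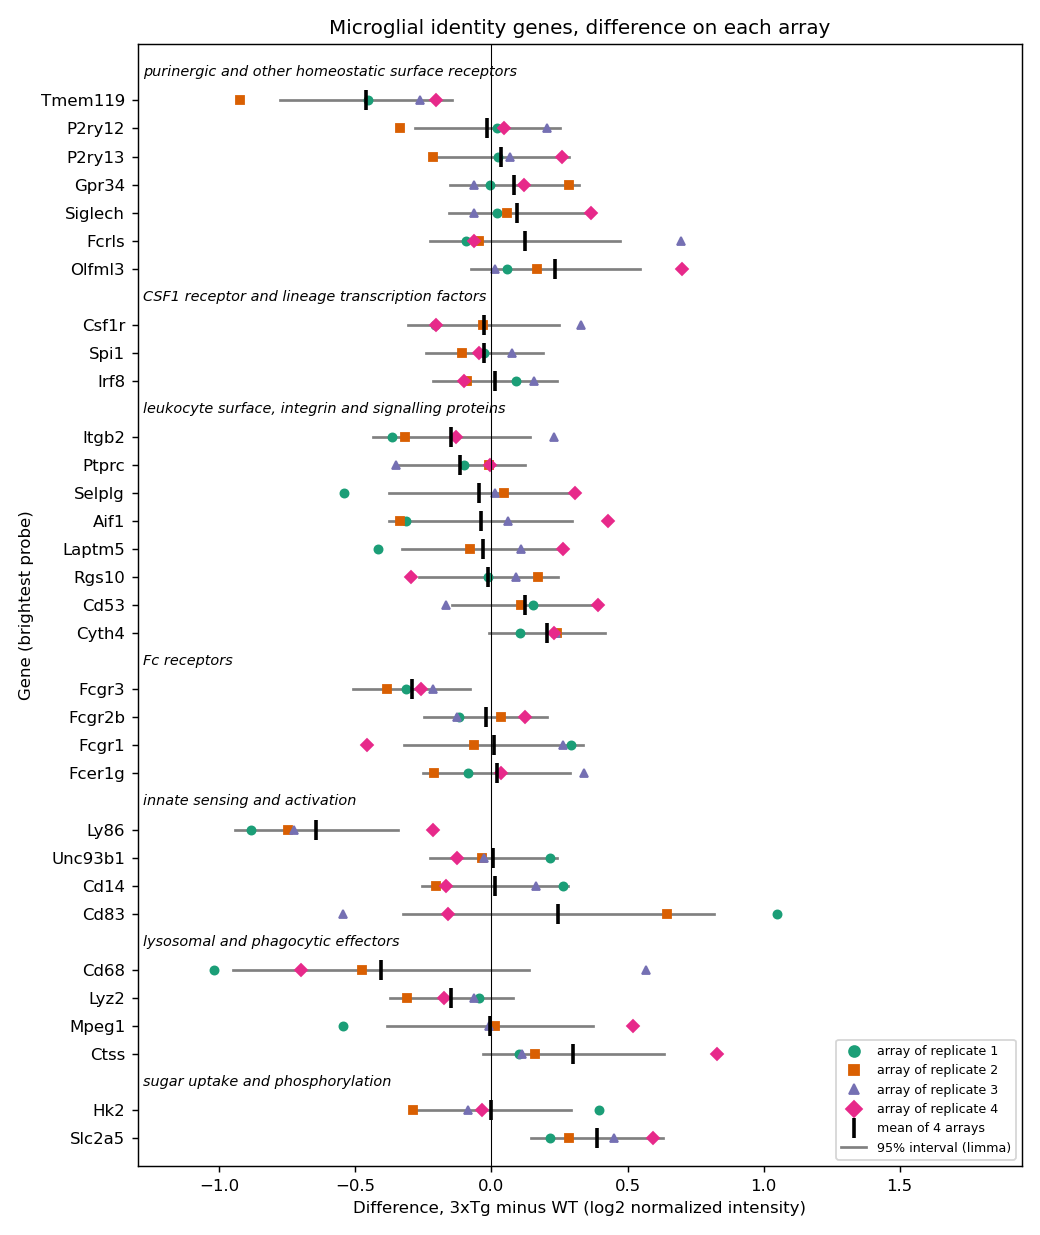
Difference on each of the 4 arrays (coloured points), their mean (black bar) and its 95% interval from limma (grey line) for 32 microglial genes at their brightest probe, grouped by role; the x axis is 3xTg minus WT in log2 normalized intensity. Most intervals cross 0, and the points of Ly86, Tmem119 and Fcgr3 lie below 0 and those of Slc2a5 above 0 on all 4 arrays.

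The region around the transcription start was read for 24 of the 33 genes from RefSeq promoter windows (GRCm38.p6, 250 bases before to 50 after the start). The 8 bases GAGGAAGT, a core of PU.1 binding sites, were searched on both strands and occurred in 3 members (12.5%), against 3.69% of the 27025 genes with a window. These members were Ctss, which encodes the lysosomal protease cathepsin S, Cd53, which encodes a leukocyte tetraspanin, and Cyth4, which encodes an exchange factor for ARF proteins. In each of them the match was on the strand opposite to the gene and near the start, its first base in the direction of the gene at position -2 in Ctss, 7 in Cd53 and 27 in Cyth4. Their differences were 0.30, 0.12 and 0.20, and 0 of the 3 passed; of the 21 members without a match 9 lay above 0, the saturated Itgam probe included. The ETS-IRF composite, searched on both strands as GGAA and GAAA with any 2 bases between them and sharing GGAA with the PU.1 core, occurred in Cd68 and Fcgr2b, 2 of the 24 (8.33%), against 3.16% of genes. A match of letters is a description and shows no binding. Ctss and Cd53 are shown as the members with a PU.1 core within the printed stretch, and Ly86 and Slc2a5 as the members of lowest and highest difference, which had neither motif. Each stretch runs 5′ to 3′ along the gene from 120 bases before to 30 after the start, and capitals mark the PU.1 core as read on the gene's strand.
Ctss (chr3:95526666-95526815, plus strand): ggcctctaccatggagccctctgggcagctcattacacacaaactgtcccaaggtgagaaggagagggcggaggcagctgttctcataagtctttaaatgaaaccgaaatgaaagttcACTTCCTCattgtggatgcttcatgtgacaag
Cd53 (chr3:106790120-106790269, minus strand): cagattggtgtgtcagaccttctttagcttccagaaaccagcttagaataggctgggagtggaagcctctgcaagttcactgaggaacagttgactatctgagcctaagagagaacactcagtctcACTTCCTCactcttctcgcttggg
Ly86 (chr13:37345225-37345374, plus strand): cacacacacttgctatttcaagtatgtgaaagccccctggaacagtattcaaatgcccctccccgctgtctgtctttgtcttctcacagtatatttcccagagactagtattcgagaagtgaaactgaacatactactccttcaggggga
Slc2a5 (chr4:150119224-150119373, plus strand): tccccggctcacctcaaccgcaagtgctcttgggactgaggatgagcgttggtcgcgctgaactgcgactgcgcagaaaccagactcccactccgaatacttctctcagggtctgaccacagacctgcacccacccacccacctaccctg

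Among the genes of innate sensing and activation, Ly86 stood lowest. Ly86 encodes MD-1, which pairs with the receptor CD180. Its levels in 3xTg were 10.29, 10.50, 10.72 and 11.34 on the arrays of replicates 1 to 4, and those in WT were 11.18, 11.25, 11.45 and 11.55. Within every array the 3xTg sample was the lower, while the 3xTg sample of replicate 4 lay above the WT samples of replicates 1 and 2, so the groups overlapped. The mean of the 4 samples was 10.71 ± 0.45 (SD) for 3xTg and 11.36 ± 0.17 (SD) for WT. The difference of -0.64 ± 0.13 (SE, 1.56-fold lower, 95% interval -0.94 to -0.34) did not pass (limma, adjusted p = 0.0678). It passed with the array as a random block (adjusted p = 0.0278), with trended and robust moderation (adjusted p = 0.0235) and without replicate 4 (-0.79, adjusted p = 0.0412), fits that called 2.32%, 1.53% and 0.389% of all probes as lower. With no array block, where 0.0948% of all probes passed as lower, its adjusted p was 0.605, the highest over the alternatives.

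The other 3 sensing genes lay above 0 in the fit, and each had both signs among the 4 arrays. Cd83, a surface protein of activated antigen-presenting cells, had 3xTg levels of 10.20, 10.10, 9.26 and 9.17 and WT levels of 9.16, 9.46, 9.81 and 9.33. The 3xTg sample was higher by 1.05 and 0.64 on the arrays of replicates 1 and 2 and lower by 0.55 and 0.16 on those of replicates 3 and 4, numbers that enter the fit as 0.25 ± 0.25 (SE, limma adjusted p = 0.644). Cd14, the co-receptor for lipopolysaccharide, differed by 0.01 (95% interval -0.26 to 0.28). Unc93b1, which carries nucleic acid-sensing Toll-like receptors to endosomes, differed by 0.0067 (95% interval -0.23 to 0.24).

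Genes of the homeostatic surface, which separate microglia from most other macrophages, were grouped with Olfml3, whose protein is secreted. Together these genes lay on both sides of 0, with 5 of 7 above and a median of 0.08. Tmem119, a membrane protein of resident microglia, measured 9.87, 8.92, 10.20 and 9.93 in 3xTg and 10.32, 9.85, 10.46 and 10.13 in WT. It was lower in 3xTg on all 4 arrays, most on that of replicate 2, and the groups overlapped. Its difference was -0.46 ± 0.14 (SE, 1.38-fold lower, 95% interval -0.78 to -0.14, limma adjusted p = 0.154), and it was -0.31 without replicate 2. P2ry12, the receptor by which microglial processes follow ADP, measured 11.37, 11.31, 11.98 and 11.66 in 3xTg and 11.34, 11.65, 11.77 and 11.62 in WT. The WT levels lay within the range of the 3xTg levels, and the difference was -0.02 ± 0.11 (SE, 95% interval -0.28 to 0.25, limma adjusted p = 0.962). The related receptor genes P2ry13 and Gpr34 differed by 0.03 and 0.08.

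Siglech, a sialic acid-binding lectin of microglia, measured 15.15, 15.46, 15.15 and 15.61 in 3xTg and 15.13, 15.40, 15.22 and 15.25 in WT at its brightest probe, a difference of 0.09 ± 0.11 (SE, limma adjusted p = 0.689). At another Siglech probe (A_55_P2141008) the difference was 0.40 ± 0.13 (unadjusted p = 0.0195, limma adjusted p = 0.196), negative on the array of replicate 1 and positive on the others. Olfml3, a secreted protein of microglia, differed by 0.23 ± 0.13 (SE, limma adjusted p = 0.401) and was higher on 4 of 4 arrays. Of this, the array of replicate 4 gave 0.70 and the other arrays 0.06, 0.17 and 0.01. Fcrls, an Fc receptor-like protein of mouse microglia, differed by 0.12 ± 0.15, with 0.70 on the array of replicate 3 and small negative values on the other arrays.

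**Figure D2:**
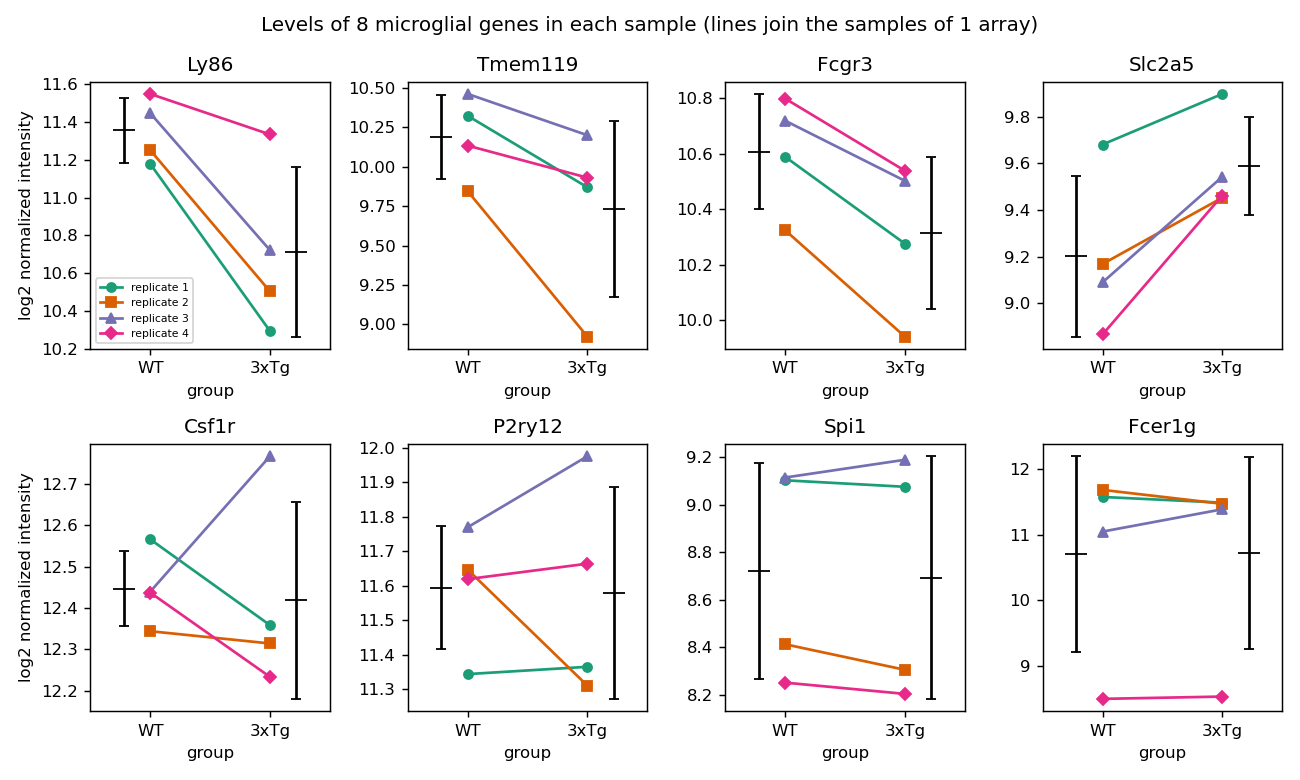
Level of 8 microglial genes in each sample (log2 normalized intensity, y axes differ between panels) for WT and 3xTg, with lines joining the samples of 1 array and black bars giving the mean and SD (n = 4). The 4 lines fall for Ly86, Tmem119 and Fcgr3, rise for Slc2a5 and have mixed slopes for Csf1r, P2ry12, Spi1 and Fcer1g.

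The CSF1 receptor gene and the genes of both lineage transcription factors differed by 0.03 or less at their brightest probes. Csf1r measured 12.36, 12.31, 12.77 and 12.23 in 3xTg and 12.57, 12.34, 12.44 and 12.44 in WT. The 3xTg samples lay on both sides of the WT samples, and the difference was -0.03 ± 0.12 (SE, 95% interval -0.31 to 0.25, limma adjusted p = 0.93). Its other probes gave -0.05 and -0.23. Spi1 measured 9.08, 8.31, 9.19 and 8.20 in 3xTg and 9.10, 8.41, 9.11 and 8.25 in WT. Both samples of replicates 2 and 4 were low and both samples of replicates 1 and 3 high, and the difference within arrays was -0.03 ± 0.09 (SE, 95% interval -0.24 to 0.19, limma adjusted p = 0.912). Irf8 differed by 0.01 ± 0.10 (95% interval -0.21 to 0.24).

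Of 17 measured genes of CSF1 and TGF-beta signalling, 6 lay above 0, the median was -0.03, and 0 of 28 probes passed (limma). At an unadjusted p under 0.05 there were 7 (25%), against 18.0% of all probes. Il34, the ligand of the CSF1 receptor that neurons make, measured 13.22 in 3xTg and 13.85 in WT, a difference of -0.63 ± 0.13 (SE, limma adjusted p = 0.0695) that was negative on 4 of 4 arrays. Its adjusted p ran from 0.0209 to 0.457 over the alternatives. Smad3, which carries TGF-beta signals to the nucleus, differed by -0.51 ± 0.14 (limma adjusted p = 0.14), with -0.06 at its other probe. Of 20 further transcription factors of microglia and other myeloid cells 10 lay above 0, and the median was 0.0019. Of their 30 probes 0 passed and 7 (23.3%) had an unadjusted p under 0.05 (limma). Klf2 (-0.59) and Mef2c (-0.57), which neurons and endothelial cells also express, had the smallest p of these.

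Of 9 leukocyte surface and signalling genes 6 lay below 0, and the median was -0.03. Aif1, which encodes the microglial marker IBA1, measured 10.56, 10.00, 10.55 and 10.96 in 3xTg and 10.87, 10.33, 10.49 and 10.53 in WT. It was lower on the arrays of replicates 1 and 2 and higher on those of replicates 3 and 4, and the difference was -0.04 ± 0.14 (SE, 95% interval -0.38 to 0.30, limma adjusted p = 0.918). Ptprc, the pan-leukocyte phosphatase CD45, differed by -0.12 ± 0.10, negative on 4 of 4 arrays although by less than 0.01 on those of replicates 2 and 4. Itgb2, the common beta subunit of leukocyte integrins, differed by -0.15 ± 0.12 (limma adjusted p = 0.574). Cyth4 measured 9.0, 8.87, 9.03 and 9.19 in 3xTg and 8.89, 8.64, 8.80 and 8.96 in WT. It was higher on 4 of 4 arrays with overlapping groups, at 0.20 ± 0.09 (SE, 95% interval -0.01 to 0.42, limma adjusted p = 0.298). The lysosomal membrane protein gene Laptm5 (-0.03), the selectin ligand gene Selplg (-0.04), the G protein regulator gene Rgs10 (-0.01) and Cd53 (0.12) made up the rest.

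Itgam, the alpha subunit CD11b of complement receptor 3, could not be read at its brightest probe, which was at the top of the scale in all 8 samples. The other Itgam probes differed by 0.04 (A_55_P1977926, limma adjusted p = 0.843) and 0.41 (A_55_P1977929, unadjusted p = 0.0287, limma adjusted p = 0.225). The latter was lower by 0.17 on the array of replicate 1 and higher by 0.71, 0.51 and 0.59 on the others.

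Of the 4 Fc receptor genes, Fcgr3 was lower on every array and the others differed by 0.02 or less. Fcgr3, the activating low-affinity receptor for IgG, measured 10.28, 9.94, 10.50 and 10.54 in 3xTg and 10.59, 10.32, 10.72 and 10.80 in WT. It was lower by 0.31, 0.38, 0.22 and 0.26 on the 4 arrays, while the levels of the groups overlapped. The difference of -0.29 ± 0.09 (SE, 1.23-fold lower, 95% interval -0.51 to -0.08) did not pass (limma, adjusted p = 0.174), and its adjusted p ran from 0.124 to 1.0 over the alternatives. Fcgr2b, the inhibitory receptor of closely related sequence, differed by -0.02 ± 0.10 (95% interval -0.25 to 0.20), and how far the probes of these paralogues cross-react is not known. The high-affinity receptor gene Fcgr1 differed by 0.0084 (95% interval -0.32 to 0.34).

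Fcer1g encodes the signalling gamma chain that Fcgr1 and Fcgr3 share. Its levels in 3xTg were 11.49, 11.47, 11.39 and 8.53, and those in WT were 11.57, 11.68, 11.05 and 8.50. Both samples on the array of replicate 4 were far below the other 6, and the difference within arrays was 0.02 ± 0.12 (SE, 95% interval -0.25 to 0.29). Beyond the members, 19 genes of Fc receptor and ITAM signalling were measured; 14 lay above 0, the median was 0.06, and 1 of 28 probes passed (3.57%) against 1.22% of all probes. This was Fcgrt, the neonatal Fc receptor that recycles IgG, which fell by 0.61 ± 0.11 (SE, limma adjusted p = 0.0483) and was lower on 4 of 4 arrays. It did not pass without replicate 1, 2, 3 or 4 (-0.68 to -0.56, adjusted p 0.0593 to 0.286). Prkcd, a protein kinase C abundant in neurons, differed by 0.84 ± 0.30 (limma adjusted p = 0.213).

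Of 4 lysosomal and phagocytic genes 3 lay below 0, and the median was -0.08. Ctss measured 11.72, 11.47, 11.92 and 12.72 in 3xTg and 11.61, 11.31, 11.81 and 11.89 in WT. It was higher on all 4 arrays, by 0.83 on that of replicate 4 and by 0.10 to 0.16 on the others, giving 0.30 ± 0.14 (SE, 1.23-fold, limma adjusted p = 0.32) and 0.12 without replicate 4. Cd68, a lysosomal glycoprotein of phagocytes, measured 10.93, 10.69, 12.23 and 11.25 in 3xTg and 11.95, 11.16, 11.66 and 11.95 in WT. Only the array of replicate 3 gave a higher 3xTg level, and the difference was -0.41 ± 0.23 (SE, limma adjusted p = 0.405), with -0.29 ± 0.15 at its other probe. It was -0.20 without replicate 1 and -0.73 (limma adjusted p = 0.0578) without replicate 3. Lyz2, lysozyme M, differed by -0.15 ± 0.10 and was lower on 4 of 4 arrays. Mpeg1, a pore-forming protein of macrophages, was the member whose probes differed in sign, at -0.0056 and 0.11.

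The genes of sugar uptake and phosphorylation were Slc2a5 and Hk2. Slc2a5, which encodes GLUT5, measured 9.90, 9.45, 9.54 and 9.46 in 3xTg and 9.68, 9.17, 9.09 and 8.87 in WT. The 3xTg sample was the higher on all 4 arrays, and the WT sample of replicate 1 lay above the 3xTg samples of replicates 2, 3 and 4. The difference of 0.39 ± 0.10 (SE, 1.31-fold higher, 95% interval 0.14 to 0.63) did not pass (limma, adjusted p = 0.129), and its adjusted p ran from 0.0815 to 0.896 over the alternatives. Hk2, a hexokinase, differed by -0.0033 ± 0.13, with 0.40 on the array of replicate 1 and negative values on the others.

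For the 8 members with more than 1 probe, the probes of a gene did not always follow each other from array to array. At the brightest Cd68 probe the array of replicate 3 gave the only positive difference, 0.57, and at the other probe that array gave -0.49 and the array of replicate 4 the only positive one, 0.32. The other Olfml3 probe differed by 0.0062 (limma adjusted p = 0.99), so the higher values of its brightest probe were not seen there. The other Selplg probe was lower on 4 of 4 arrays, at -0.19 (limma adjusted p = 0.349). Whether the probes read different transcripts was not tested.

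**Figure D3:**
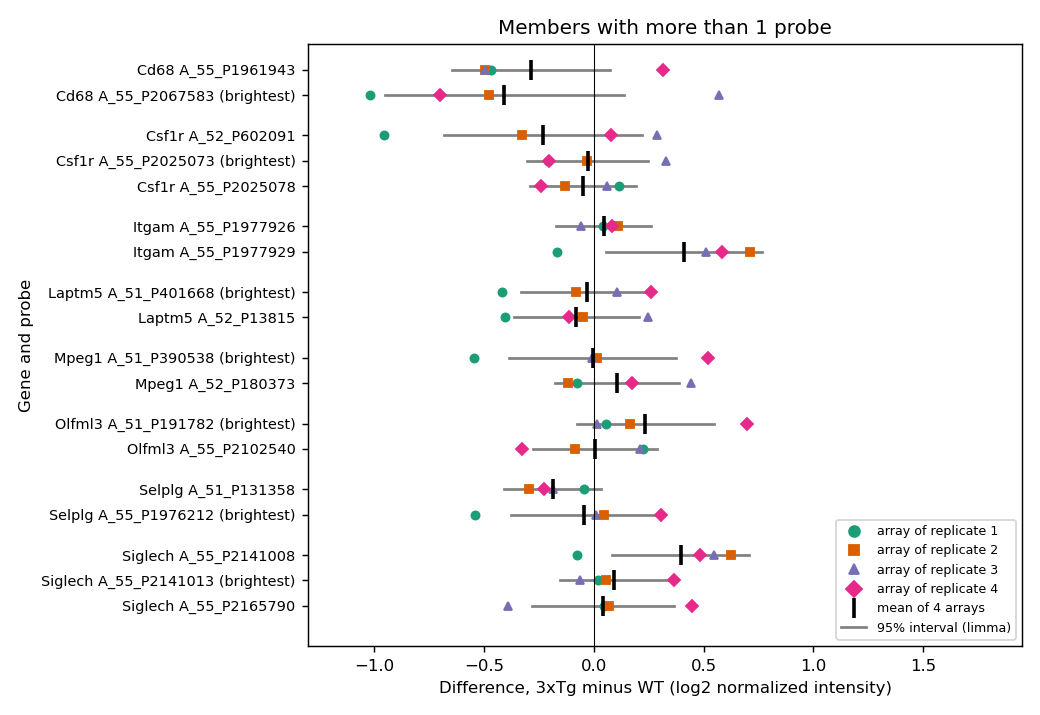
Differences of the 8 members with more than 1 probe, by probe: coloured points are the 4 arrays, black bars their mean and grey lines the 95% interval of limma, on an axis of 3xTg minus WT in log2 normalized intensity. The saturated Itgam probe is left out, and the intervals of 1 Itgam and 1 Siglech probe lie above 0.

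The level of the members also varied from array to array, in both samples of an array together. With these averaged, a gene's level spanned 0.63 log2 units over the 4 arrays (median of 32 genes), against 0.58 over all named genes. The span was widest for Fcer1g (3.06), Irf8 (1.25), Unc93b1 (1.06), Cd68 (1.02) and Mpeg1 (1.00) and narrowest for Csf1r (0.27). Irf8 had array means of 12.21, 11.49, 11.20 and 10.96, and Unc93b1 of 12.02, 11.43, 11.36 and 10.96. Mpeg1 had its highest mean, 11.85, on the array of replicate 4, where those of Irf8 and Unc93b1 were lowest. The RNA, the mice and the array differ together here, so their parts in this span cannot be told apart. The members' median difference on the arrays of replicates 1 to 4 was -0.01, -0.05, 0.06 and -0.0042, and 14, 13, 19 and 15 of the 33 genes lay above 0.

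Other genes of microglia and of the members' pathways were read from lists of textbook genes. Some genes stand in several of these lists, so the lists are not separate from each other. Tgfbr1, for example, is in the list of other microglia-enriched genes and in that of CSF1 and TGF-beta signalling. The medians of these lists were the same (-0.0332). Of 37 other microglia-enriched genes 16 lay above 0, the median was -0.03, and 0 of 51 probes passed (limma; 12 at an unadjusted p under 0.05, 23.5%, against 18.0% of all probes). Crybb1, a crystallin that microglia express, was lower on 4 of 4 arrays at both probes, at -0.43 ± 0.10 and -0.61 ± 0.11 (SE, limma adjusted p = 0.0924 and 0.0549). Cst3, the protease inhibitor cystatin C, differed by -0.43 and was saturated in 2 samples. Of 26 genes of disease-associated microglia 13 lay above 0, with a median of 0.01. Of their 36 probes 0 passed the test and 6 (16.7%) had an unadjusted p under 0.05. In that list B2m, the light chain of MHC class I that many cell types make, differed by 0.97 (limma adjusted p = 0.0521, and 0.0114 to 0.374 over the alternatives) and the tetraspanin gene Cd63 by 0.48 (adjusted p = 0.0971).

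In the Toll-like receptor pathway 13 of 29 genes lay above 0, the median was -0.01, and 0 of 39 probes passed (limma). At an unadjusted p under 0.05 there were 3 (7.69%), against 18.0% of all probes. Nfkbia, the inhibitor of NF-kappa-B that this pathway induces, differed by -0.62 ± 0.12 (adjusted p = 0.0678) and Tlr1 by -0.29. Integrin and adhesion partners had 12 of 18 genes above 0, a median of 0.02 and 0 of 29 probes past the test. Vcam1 stood at 0.27 and Icam1 at 0.23. At an unadjusted p under 0.05 there were 2 probes (6.90%), an Itgam probe (A_55_P1977929) and a Vcam1 probe that was not its brightest. The list holds the members Itgam, counted above 0 at its saturated probe, and Selplg, so it is not separate from the members. Purinergic receptors and ectonucleotidases had 9 of 11 above 0, a median of 0.03 and 0 of 15 probes past the test (1 at an unadjusted p under 0.05, 6.67%). The adenosine-producing enzyme Nt5e stood at -0.84 and P2rx7 at -0.37 (-0.02 and -0.11 at its other probes).

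Markers of other leukocytes were examined because several members are shared with them. Border macrophage genes had 9 of 12 above 0 and a median of 0.05, and their mean level over genes was 8.60 to 9.05 in 3xTg samples and 8.63 to 8.88 in WT samples. Stab1 differed by -0.27 and Folr2 by 0.21. Monocyte and neutrophil genes had 9 of 14 above 0, a median of 0.08 and mean levels of 9.10 to 9.65 in 3xTg and 9.09 to 9.60 in WT, with Cxcr2 at 0.16 and Camp at 0.15. Lymphocyte genes had 6 of 12 above 0, a median of 0.00092 and mean levels of 9.65 to 9.81 and 9.70 to 9.82, with Gzma at 0.30 and Cd79b at 0.23. In these lists 0 of 15, 16 and 17 probes passed (limma). At an unadjusted p under 0.05 there were 1, 0 and 1, against 18.0% of all probes. The mean level of the microglial members, the saturated Itgam probe included, was 10.73 to 11.01 in 3xTg and 10.82 to 11.05 in WT. The ranges of the groups overlapped in each of these lists, and levels are not compared between lists. Within arrays, the mean level of the monocyte and neutrophil genes was higher in 3xTg on 4 of 4 (9.65 against 9.60, 9.339 against 9.335, 9.26 against 9.13 and 9.10 against 9.09), and that of the members, the border macrophage genes and the lymphocyte genes on 2 of 4. The median difference of the monocyte and neutrophil genes was 0.11, -0.06, 0.15 and 0.08 on the arrays of replicates 1 to 4, so its direction was not the same on all of them. The part of these cells in the members' differences was not tested.

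Markers of the other cells in the dissection were read in the same way. Oligodendrocyte genes had 9 of 9 above 0 and a median of 0.28, with array medians of -0.23, 0.58, 0.71 and 0.40 and mean levels of 12.62 to 13.20 in 3xTg and 12.34 to 12.91 in WT; Ugt8a differed by 0.69 and Cldn11 by 0.77. Without replicate 1 their median was 0.58. Astrocyte genes had 8 of 10 above 0 and a median of 0.25, with mean levels of 12.71 to 13.05 in 3xTg and 12.64 to 12.79 in WT, Slc1a3 at 0.43 and Gfap at 0.31. The median of 12 neuronal genes was 0.14, with array medians of 0.46, 0.03, -0.18 and 0.15 and Nefm at 0.79 (higher on 3 of 4 arrays). The neuronal gene Slc17a7 stood at -2.06 with 1 saturated sample and array differences of -1.90, -3.03, -4.62 and 1.30. For 10 ependymal genes the median was -0.03 (Dynlrb2 -0.39, Mia 0.18), with array medians of -0.30, -0.13, 0.49 and -0.37. Medians were 0.02 for 12 genes of neuroblasts and transit-amplifying cells (Sp9 0.79, Sox11 -0.54). They were 0.05 for 12 endothelial and pericyte genes (Cldn5 -0.33, Flt1 -0.19 with 0.10 and 0.16 at its other probes), 0.21 for 6 red blood cell genes (Hbb-bs 0.22, Hbb-b2 0.22; 0.018 without replicate 3) and -0.03 for 7 choroid plexus genes (Slc4a5 -0.54 with 0.21 at its other probe, Ttr 0.93). In these lists 0 probes passed (limma). An unadjusted p under 0.05, held by 18.0% of all probes, was found for 7 of 17 astrocyte (41.2%) and 8 of 18 neuroblast probes (44.4%). It was found for 3 of 14 oligodendrocyte (21.4%), 4 of 18 neuronal (22.2%) and 3 of 11 choroid plexus probes (27.3%). It was also found for 2 of 15 endothelial (13.3%), 0 of 12 ependymal and 0 of 6 red blood cell probes. The part of the make-up of the dissected tissue in the members' differences was not tested.

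**Figure D4:**
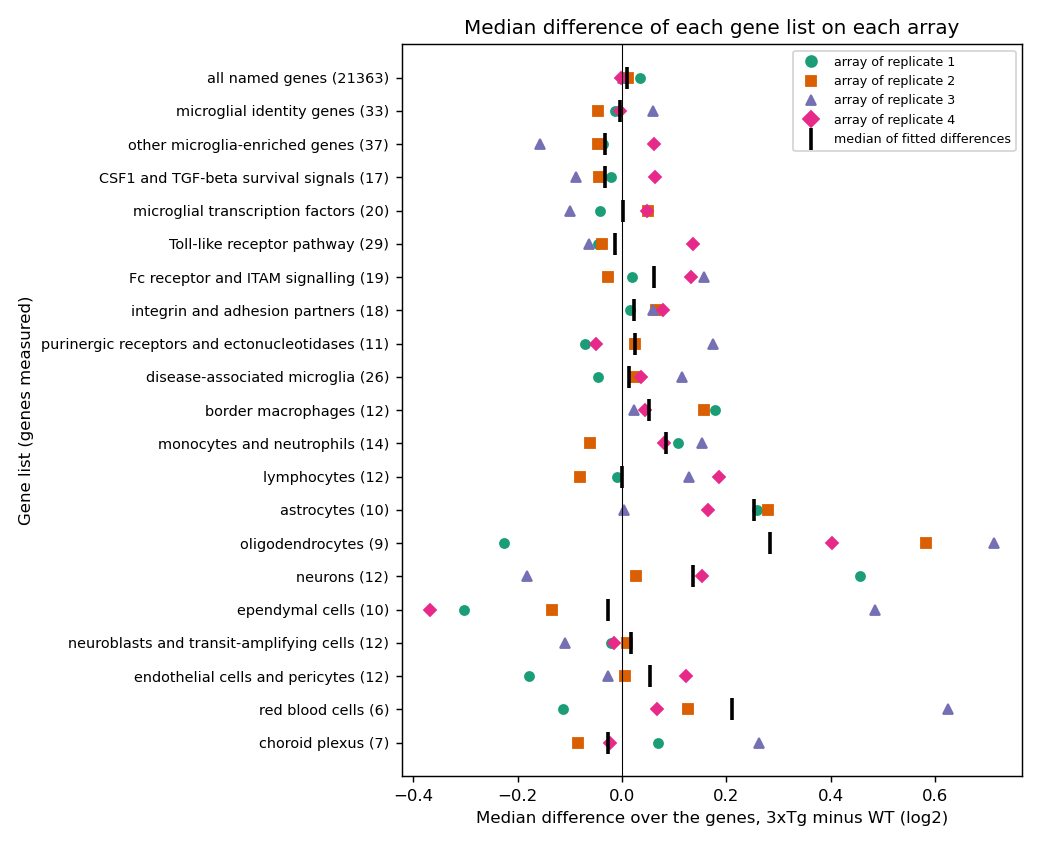
Median difference over the genes of each list on each array (coloured points) and the median of the fitted differences (black bar), in log2 units of 3xTg minus WT; the number of genes measured stands beside each list. The microglial members lie between -0.05 and 0.06 on the 4 arrays, while oligodendrocyte genes run from -0.23 to 0.71.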

How the data were processed

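Total RNA of 8 subventricular zone samples was measured on 4 2-colour arrays. The authors deposited normalized log2 intensities, 1 for each probe in each sample. The submitters' processing notes name limma; neither the background correction nor the normalization method is stated there. Of 32684 probes 29769 had 1 gene symbol in the platform annotation, 0 several and 2915 none. Differences were estimated by limma 3.58.1 (R 4.3.3) with array and genotype as fixed effects. The pairing comes from the labels, which give same-numbered samples 1 scanner file. The deviations of these samples from group means correlated at 0.78, 0.78, 0.54 and 0.82, against at most 0.18 between samples of opposite genotype on different arrays. Deviations within a group sum to 0, which lowers the correlations between arrays, so this contrast is partly fixed by the centring. In each sample 109 to 288 probes shared the highest value (15.98 to 16.00), called saturated here. On simulated data, limma called 46 of 50 probes raised by 1 log2 unit, 41 of 50 lowered by 1 and 0 of 50 raised by 0.5. It also called 7 of 32484 unchanged probes. Differences of 0.5 were thus mostly missed in the simulation. Only 200 probes were changed there, while 400 passed in the deposited data, so the shares called may differ between them.

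Members, lists and roles were chosen with earlier results of these data known. Named in full are members with any probe past the threshold, the 2 of smallest p in each role group, P2ry12, Tmem119, Csf1r, Aif1, Spi1 and Siglech, and members whose probes differ in sign; in other lists, genes past the threshold and the 2 of smallest p. Alternatives were no array block, a random block (statmod 1.5.0), median centring, quantile normalization, loess (span 0.3), trended and robust moderation, leaving out the dimmest 25% of probes, each array or saturated members, and other rules for probes. The brightest probes of Lyz2, Hk2 and Gpr34 were among the dimmest 25%, so that alternative does not cover them.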

Additional observations from a re-analysis of the deposited data

Results flagged for a closer look

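Levels of the members were examined in 64 groups of 4 samples for a sample far from the others, of which chance marks about 1 in 20. There were 2 such groups. The Fcer1g level of 3xTg replicate 4 was 8.53, against 11.39 to 11.49 in the other 3xTg samples, and the WT sample of the same array was as low, at 8.50. The Laptm5 level of WT replicate 2 was 11.40, against 11.86 to 11.93 in the other WT samples, and 3xTg replicate 2 was at 11.32. The cause was not tested.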

How the results depend on the processing

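The 33 members had 0 probes passing as higher under every alternative run and 0 or 1 as lower. The 1 was Ly86, under the random replicate block, under trended and robust moderation and without replicate 4. The members' median of -0.0033 stayed between -0.04 and 0.02 under every alternative, including the brightest unsaturated probe, a rule chosen after seeing the data. Over all probes, 203 passed as higher and 197 as lower. These counts were 47 and 31 with no replicate block, 551 and 758 with the random replicate block, 132 and 115 after quantile normalization and 405 and 500 with trended and robust moderation. Without 1 replicate they ran from 12 to 185 and from 19 to 229, lowest without replicate 2 (12 and 19) and next without replicate 1 (74 and 57); without replicate 4 the lower count was 127. With no replicate block 0 member probes passed.

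Of 32 unsaturated members 14 kept their direction without each replicate. Without 1 replicate at a time, the other 18 crossed 0: Aif1 from -0.20 to 0.059, P2ry12 from -0.090 to 0.091, P2ry13 from -0.041 to 0.12, Csf1r from -0.15 to 0.031, Fcer1g from -0.088 to 0.096, Fcrls from -0.068 to 0.20 and Laptm5 from -0.13 to 0.096. Spi1 ran from -0.061 to 2.8e-05, Irf8 from -0.033 to 0.053, Cd83 from -0.022 to 0.51, Selplg from -0.16 to 0.12, Fcgr1 from -0.086 to 0.16 and Fcgr2b from -0.069 to 0.014. Hk2 ran from -0.14 to 0.092, Mpeg1 from -0.18 to 0.17, Cd14 from -0.070 to 0.086, Rgs10 from -0.073 to 0.082 and Unc93b1 from -0.063 to 0.051. Of the 14, Cd68 ran from -0.73 to -0.20, Itgb2 from -0.27 to -0.074, Ptprc from -0.15 to -0.038, Olfml3 from 0.080 to 0.31, Ctss from 0.12 to 0.37, Cd53 from 0.031 to 0.22, Siglech from 0.0038 to 0.15 and Gpr34 from 0.017 to 0.13. Lists whose median moved by more than the SD of its 4 array values were CSF1 and TGF-beta signals (-0.11 to -0.041 without 1 replicate), integrin partners (0.027 to 0.10, and 0.054 with probes averaged) and neuroblast genes (-0.035 to 0.047). Within that SD, which is wide for them, medians without 1 replicate ran from 0.19 to 0.58 for oligodendrocyte, 0.018 to 0.31 for red blood cell, 0.052 to 0.21 for neuronal, -0.10 to 0.077 for lymphocyte, -0.085 to 0.12 for choroid plexus, -0.16 to 0.024 for ependymal and -0.021 to 0.11 for endothelial genes. Signs turned for Hk2 after median centring (0.00051), for Mpeg1 after quantile normalization (0.0026) and with probes averaged (0.050), and for Flt1 with probes averaged (0.022). Named genes outside the members that passed only under an alternative numbered 13 with the random replicate block, 9 with trended and robust moderation, 4 without replicate 4, 2 without replicate 1, 2 after median centring (B2m and Sp9), 1 after loess (B2m) and 1 without replicate 3 (B2m). Fcgrt did not pass with no replicate block (adjusted p = 0.455) or after quantile normalization (0.07). The cause was not tested. Saturation limits Itgam.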
